A study of Mus musculus with 10 samples.

Results

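The genes described here are the Cyp2 cytochromes P450 of mouse liver outside the Cyp2b subfamily. They were taken as every gene whose symbol is Cyp2 followed by a letter and a number, without the Cyp2b genes, the Cyp27 genes and symbols ending in -ps, and 42 of the 22180 genes measured on the arrays were found in this way. The 42 genes comprised 14 Cyp2c, 9 Cyp2d, 7 Cyp2j and 4 Cyp2a genes, and 1 gene each of Cyp2e, Cyp2f, Cyp2g, Cyp2r, Cyp2s, Cyp2t, Cyp2u and Cyp2w. Cyp2ab1, whose symbol has a pair of letters after Cyp2, was not counted among them and had a mean of 2.80 in control livers on the log2 scale of the arrays.

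RNA of 10 livers from male mice aged 4 weeks was measured on whole-transcript arrays. All 10 carried rtTA at the Rosa26 locus, a regulator that turns on its target transgene when doxycycline is given. The 4 control livers had the genotype Rosa26-rtTA alone and came from littermates. In the other livers rtTA was combined with a hairpin RNA against Sod2, the mitochondrial superoxide dismutase, namely shRNA 1 in 3 livers and shRNA 2 in 3 livers. Chow with doxycycline at 625 mg/kg was given to the pregnant dams, so that the knockdown window was embryonic day 0 to 12.5. The livers with a hairpin are called adapted here, as a name for the group and not as a result. Of the controls, 3 are from the cohort of shRNA 2 and 1 is from that of shRNA 1, but which control that was is not given, so that hairpin and cohort cannot be told apart. The labels do not state that each numbered liver is a separate animal, and p-values therefore measure the spread between these samples. Precision is limited by how few arrays there are. The number of founder lines behind each hairpin is not given in the sources used here.

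Cytochromes of the Cyp2 family are heme enzymes of the endoplasmic reticulum that insert an oxygen atom into their substrate, with electrons passed on by cytochrome P450 reductase and cytochrome b5. Hepatocytes hold many of them, and they oxidise drugs, solvents and plant compounds as well as steroids, retinoids and polyunsaturated fatty acids such as arachidonic acid. In rodents the family is expanded into clusters of neighbouring paralogs. Several of these depend on the sex-dependent rhythm of growth hormone secretion, on nuclear receptors such as CAR and PXR, or on the circadian output factors Dbp, Tef and Hlf.

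Several of the members whose levels differed most between livers belong to small groups of closely related neighbours, as do members that differed less. The DNA upstream of their starts is shown first for some of these groups, because values are described by group below. RefSeq promoter windows (assembly GRCm38.p6) were found for 34 of the 42 members, and each was reduced to the 200 bases before the annotated start. For the first group, Cyp2c38 (chr19:39463076-39463275, minus strand) and Cyp2c39 (chr19:39347146-39347345, plus strand), capitals mark the letters CAAAGTNNA.
Cyp2c38: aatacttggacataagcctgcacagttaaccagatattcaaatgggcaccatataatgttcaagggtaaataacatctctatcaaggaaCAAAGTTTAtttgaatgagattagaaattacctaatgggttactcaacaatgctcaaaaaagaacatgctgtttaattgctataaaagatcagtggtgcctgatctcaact
Cyp2c39: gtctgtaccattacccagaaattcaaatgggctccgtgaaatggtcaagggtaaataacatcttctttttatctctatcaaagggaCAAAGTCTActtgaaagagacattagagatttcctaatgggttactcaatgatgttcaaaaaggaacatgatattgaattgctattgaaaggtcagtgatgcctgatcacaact
The second group holds Cyp2c68 (chr19:39741102-39741301), Cyp2c40 (chr19:39812815-39813014) and Cyp2c69 (chr19:39886770-39886969), all on the minus strand, with the same letters in capitals.
Cyp2c68: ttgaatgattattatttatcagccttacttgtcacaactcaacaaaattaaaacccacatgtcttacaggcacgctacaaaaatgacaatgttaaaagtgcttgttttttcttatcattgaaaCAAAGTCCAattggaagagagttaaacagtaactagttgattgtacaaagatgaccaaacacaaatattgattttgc
Cyp2c40: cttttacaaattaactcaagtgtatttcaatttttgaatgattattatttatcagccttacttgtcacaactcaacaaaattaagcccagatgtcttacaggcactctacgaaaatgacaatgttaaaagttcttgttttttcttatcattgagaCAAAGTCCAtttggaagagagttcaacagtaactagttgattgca
Cyp2c69: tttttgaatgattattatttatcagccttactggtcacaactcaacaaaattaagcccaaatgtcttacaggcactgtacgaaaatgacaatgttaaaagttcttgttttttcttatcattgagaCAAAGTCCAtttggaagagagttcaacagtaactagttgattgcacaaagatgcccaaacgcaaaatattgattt
After global alignment the windows of Cyp2c68 and Cyp2c69 were identical at 89.7% of positions, gaps counted, those of Cyp2c40 and Cyp2c69 at 72.6%, and those of Cyp2c38 and Cyp2c39 at 73.0%. The stricter letters CAAAGTCCA, of the kind bound by the hepatocyte factor HNF4A, were searched on both strands and were present in 5 of the 34 members (Cyp2c40, Cyp2c65, Cyp2c68, Cyp2c69 and Cyp2c70), against 0.317% of 32851 promoter windows in the table. CAAAGTNNA, which includes it and was chosen after the windows had been read, was present in 11 members and in 2.75% of all windows. The stricter letters were thus in the windows of the second group and not in those of Cyp2c38 and Cyp2c39. Because the windows of the second group resemble each other, the 5 matches are not independent. TTCNNNGAA, the letters of a STAT-type site, were in 0 of the 34 member windows and in 5.49% of all.

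The Cyp2a pair is shown for the near identity of its windows. Cyp2a4 (chr7:26306992-26307191) and Cyp2a5 (chr7:26835139-26835338) lie on the plus strand, and capitals mark the letters TTATGNAA of a D-box, the kind of site bound by Dbp, Tef and Hlf, here read on the opposite strand.
Cyp2a4: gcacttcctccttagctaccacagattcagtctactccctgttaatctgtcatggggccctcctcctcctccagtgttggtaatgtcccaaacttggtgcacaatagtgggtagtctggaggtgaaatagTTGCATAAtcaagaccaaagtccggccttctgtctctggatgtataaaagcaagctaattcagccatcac
Cyp2a5: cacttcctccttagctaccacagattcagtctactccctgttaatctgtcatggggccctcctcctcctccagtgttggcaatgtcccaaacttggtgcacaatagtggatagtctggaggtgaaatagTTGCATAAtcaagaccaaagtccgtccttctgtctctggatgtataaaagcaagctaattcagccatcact
These windows were identical at 97.5% of aligned positions. The D-box letters began 70 bases before the start in Cyp2a4 and 71 in Cyp2a5, were found in these 2 of the 34 members, and were present in 2.40% of all windows. The same stretch also matches TTGCNNAA, the letters of a C/EBP-type site, which 6 members and 7.47% of all windows held. Such matches describe letters only and do not show that a factor binds there.

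Sod2 itself, measured long after doxycycline was withdrawn, was between 10.2 and 10.5 in all 10 livers. Over all genes any pair of arrays had a correlation of 0.989 to 0.994, and array medians were 4.06 to 4.17. The label of liver was borne out by the 9 hepatocyte markers measured, all above the level filter, whose mean lay between 12.8 and 12.9 in every liver. Of the markers of other cells, the macrophage list (10 of 10 above the filter) averaged 8.24 to 8.48 in controls, 8.27 to 8.47 in shRNA 1 and 8.31 to 8.65 in shRNA 2 livers, and the stellate list (8 of 8) 7.80 to 7.92, 7.89 to 8.03 and 7.87 to 8.08. Of 6 kidney tubule markers, Umod, Kap, Slc12a1 and Slc22a6 were below the filter, and the list averaged 3.52 to 3.79. In whole liver RNA fewer cells of a type and less RNA per cell cannot be told apart.

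All levels below are log2 values of the gene's transcript cluster, a set of probes for one transcript region. Levels of different genes rest on different probes, so only their broad range is compared. Of the 42 members, 32 passed the level filter of 3.98, which is the 40th percentile of the mean level over all livers, and could be tested. The 10 members below it were Cyp2c65, Cyp2c66, Cyp2d11, Cyp2d12, Cyp2d34, Cyp2j8, Cyp2j11, Cyp2j12, Cyp2j13 and Cyp2t4, with means of 2.12 to 3.88 and no single value above 4.28. Cyp2a5 and Cyp2g1 passed the filter although their control means lay below it. The measured members thus ranged from the bottom of the array to its top: 13 had a mean above 10, 6 had one above 12, and 8 were among the highest 1% of all genes.

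**Figure D1:**
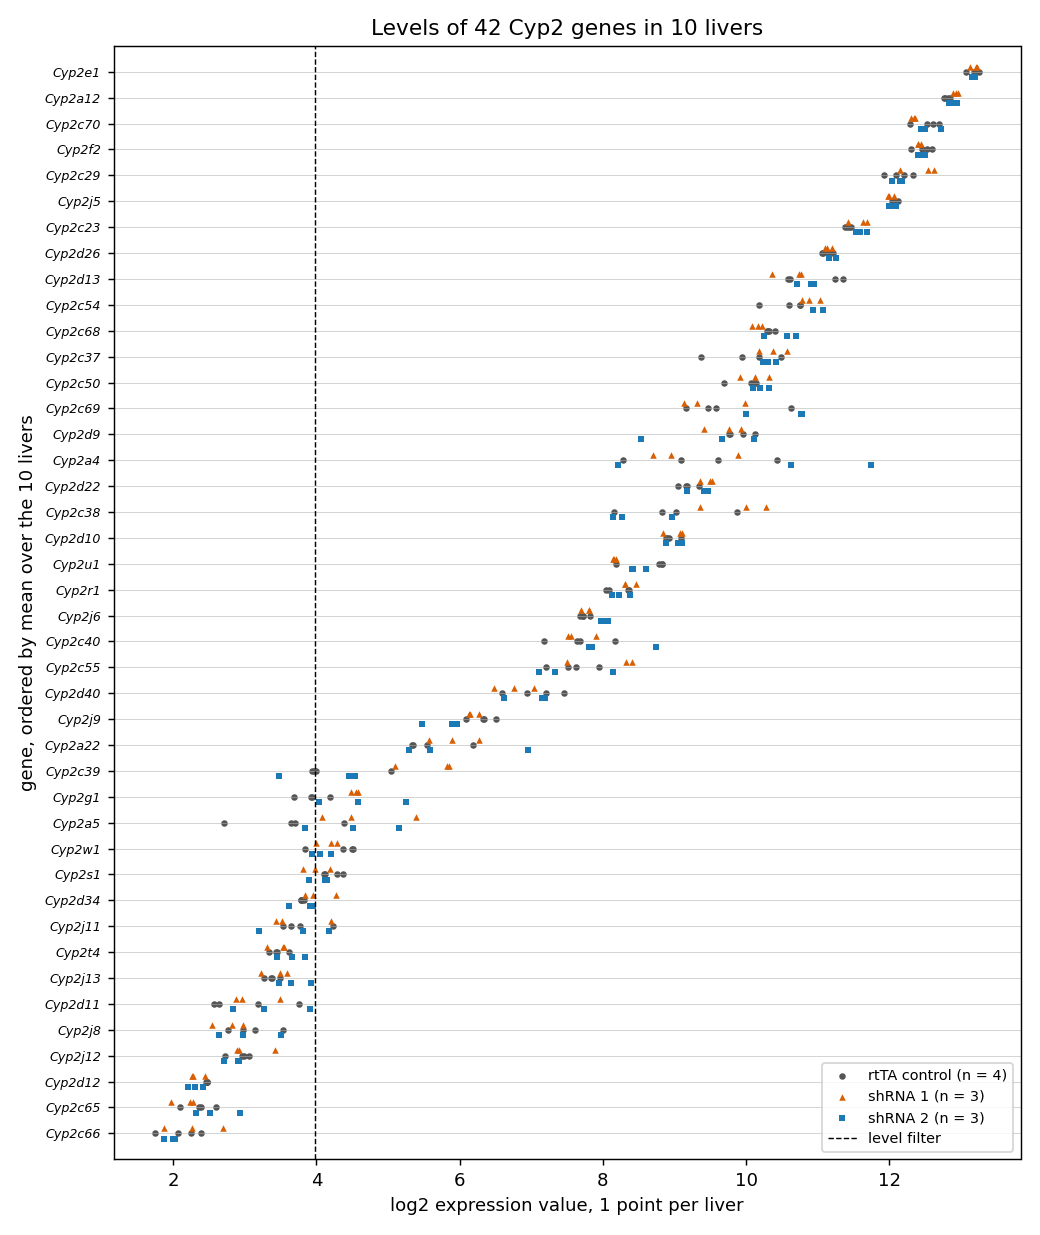
Log2 level (horizontal axis) of the Cyp2 members in each of the 10 livers, one row per member, with control, shRNA 1 and shRNA 2 livers in different colours. The points of Cyp2e1, Cyp2a12, Cyp2f2 and Cyp2j5 fall almost on top of each other at levels of 11.98 to 13.25, whereas those of Cyp2a4, Cyp2c38, Cyp2c39 and Cyp2c69 are spread over more than 1 log2 unit.

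Of the 6 members with a mean above 12, Cyp2e1, Cyp2a12, Cyp2f2 and Cyp2j5 varied little across livers, and Cyp2c70 and Cyp2c29 varied more. Cyp2e1, the ethanol and acetaminophen oxidase of hepatocytes around the central vein, was at 13.07, 13.20, 13.19 and 13.25 in the controls, 13.21, 13.12 and 13.21 in shRNA 1 livers and 13.18, 13.19 and 13.15 in shRNA 2 livers. The 3 groups overlapped, and the difference between adapted and control livers was 0.00 with a 95% confidence interval of -0.15 to 0.15. Cyp2f2, which activates naphthalene and in liver is found towards the portal vein, was at 12.59, 12.52, 12.45 and 12.29 in controls and between 12.39 and 12.50 in the 6 adapted livers. Its difference was -0.04 (interval -0.21 to 0.13), and the intervals of both genes held 0. Cyp2j5, an arachidonic acid epoxygenase, ranged only from 11.98 to 12.11, with a difference of -0.04 (interval -0.19 to 0.11). Cyp2a12, a testosterone hydroxylase, was at 12.77 to 12.84 in controls, 12.89 to 12.95 in shRNA 1 and 12.82 to 12.94 in shRNA 2 livers, and Cyp2c70, which makes muricholic acids from bile acid precursors, was at 12.29 to 12.69 in controls and 12.31 to 12.72 in adapted livers. Cyp2c29, an abundant epoxygenase induced through CAR, was at 11.93, 12.20, 12.09 and 12.33 in controls, 12.15 to 12.63 in shRNA 1 and 12.03 to 12.17 in shRNA 2 livers. Its difference from control was 0.30 for shRNA 1 (standard error 0.13, adjusted p = 0.594 in limma) and -0.02 for shRNA 2.

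Within groups the members fell into steady and unsteady genes. The median within-group standard deviation was 0.19 for the 32 tested members and 0.16 for all 13308 genes tested. Of the 32, 8 lay below the 25th percentile of spread over all genes tested, led by Cyp2j5 and Cyp2a12 (both 0.042), Cyp2j6 (0.058), Cyp2e1 (0.059) and Cyp2d26 (0.061), a Cyp2d enzyme with group means of 11.12 to 11.19. By contrast 13 lay above the 90th percentile of spread, led by Cyp2a4 with 1.18, Cyp2a5 with 0.67, Cyp2c38 with 0.58, Cyp2a22 with 0.57, Cyp2c69 with 0.54 and Cyp2c39 with 0.53. The precision of each comparison below therefore differs greatly between members.

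The first comparison, of the mean of both hairpin groups with control, addresses what remained different after the knockdown in utero. No tested member passed an adjusted p of 0.05 in limma (0 of 32), where 0.00751% of all genes tested did, and the smallest adjusted p among members was 0.43. At an unadjusted p under 0.05 there were 6 members with a higher mean in adapted livers (Cyp2a5, Cyp2c39, Cyp2c54, Cyp2d22, Cyp2g1 and Cyp2j6) beside 4.86% of all genes, and 2 with a lower mean (Cyp2j9 and Cyp2u1) beside 3.51%. Cyp2a5 and Cyp2g1 passed the level filter only through the adapted livers, which favours a higher call, and over genes with a control mean not below the filter the higher count was 4 of 30 members beside 4.74% of 13201 genes. The differences of Cyp2j9 and Cyp2u1 were -0.34 and -0.33, with adjusted p-values of 0.458 and 0.506 in limma. Of the 32, 22 had a difference above 0 and the median difference was 0.12, against 0.01 over all genes tested. Without Cyp2a5 and Cyp2g1 these were 20 of 30 and 0.10. The Cyp2c subfamily had 11 of 12 tested members above 0 with a median of 0.21, the Cyp2a subfamily, Cyp2a5 included, 4 of 4 with 0.33, and the Cyp2d subfamily 3 of 6 with -0.06. Paralogs may share probe signal, and these counts are not over independent genes.

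Cyp2c54, an arachidonic and linoleic acid oxidase of the Cyp2c cluster, was the one tested member with no overlap between adapted and control livers in either direction, where 1.04% of all genes had higher and 0.842% lower values without overlap. It was at 10.18, 10.60, 10.75 and 10.75 in controls, at 10.77, 10.88 and 11.03 in shRNA 1 livers and at 10.93, 10.94 and 11.07 in shRNA 2 livers. Control replicate 1 was the lowest liver, and the highest controls lay just below the lowest adapted liver. The difference was 0.37 (standard error 0.12, interval 0.12 to 0.62), a ratio of 1.29 (adjusted p = 0.433 in limma). Without control replicate 1 it was 0.24. Its neighbours Cyp2c37, at 9.37, 10.18, 9.95 and 10.49 in controls and 10.17 to 10.57 in adapted livers, and Cyp2c50, at 9.69 to 10.13 and 9.91 to 10.32, also had control replicate 1 as their lowest liver, with differences of 0.35 and 0.16. Without that liver the difference was 0.14 for Cyp2c37 and 0.06 for Cyp2c50. Over 8 markers of hepatocytes around the central vein, control replicate 1 averaged 9.04 and the other livers 9.07 to 9.56. Over 6 markers of hepatocytes towards the portal vein it averaged 11.33, the highest control, and the other livers 10.84 to 11.36. The part of these markers in the differences was not tested.

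Cyp2g1, a steroid and odorant hydroxylase best known from olfactory mucosa, was near the lower limit of the array. It was at 3.69, 3.93, 3.94 and 4.19 in controls, at 4.48, 4.55 and 4.58 in shRNA 1 livers and at 4.58, 4.04 and 5.26 in shRNA 2 livers. All shRNA 1 livers and 2 of 3 shRNA 2 livers were above every control, for a difference of 0.64 (standard error 0.19, adjusted p = 0.427 in limma). The transcript cluster assigned to Cyp2a5, the coumarin hydroxylase, likewise read low, at 3.71, 3.65, 2.71 and 4.39 in controls, 4.48, 4.08 and 5.38 in shRNA 1 and 4.51, 3.85 and 5.15 in shRNA 2 livers. Paralogs were not told apart beyond the annotation, so this need not be the level of the gene. The groups overlapped through control replicate 4, and the difference was 0.96 (standard error 0.34, adjusted p = 0.497 in limma). Since both genes passed the level filter only through the adapted livers, their higher adapted means are partly fixed by that filter.

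Among the enzymes at moderate level, Cyp2d22, the mouse gene closest in function to human CYP2D6, was at 9.05 to 9.34 in controls, 9.36 to 9.53 in shRNA 1 and 9.17 to 9.46 in shRNA 2 livers, a difference of 0.23 (standard error 0.09). Cyp2r1, the hepatic vitamin D 25-hydroxylase, was at 8.05 to 8.36 in controls and 8.13 to 8.46 in adapted livers, with a difference of 0.09 (interval -0.11 to 0.29). Cyp2s1, an enzyme of epithelia such as skin and airway, stood at 4.11 to 4.37 in controls and 3.82 to 4.18 in adapted livers. All 3 genes overlapped between adapted and control livers, with adjusted p-values of 0.521, 0.840 and 0.619 in limma.

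**Figure D2:**
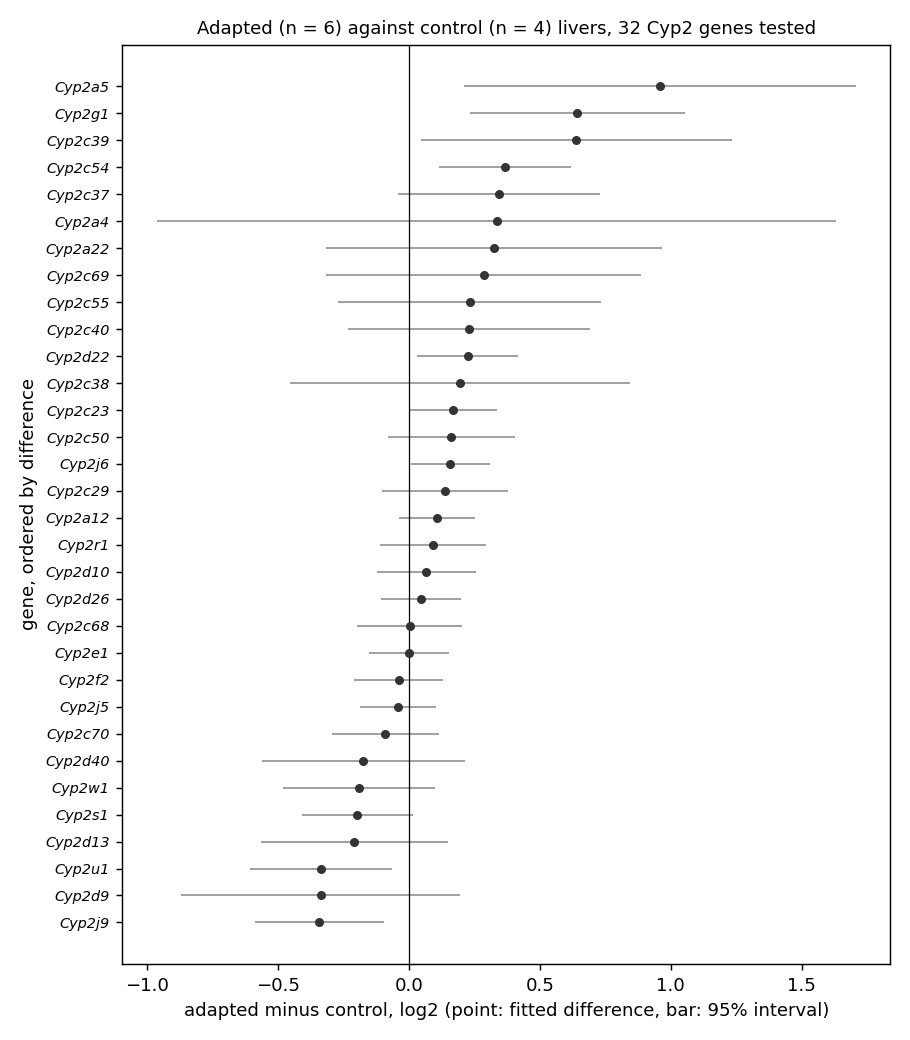
Difference between adapted and control livers in log2 units (horizontal axis) for the 32 tested members, with points for the limma estimate and bars for its 95% confidence interval. Most points lie to the right of 0, with the widest bars for Cyp2a4 and Cyp2a5 and narrow bars around 0 for Cyp2e1, Cyp2j5 and Cyp2f2.

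The hairpins were also compared with control one at a time, on the same 4 controls. In shRNA 1 livers no member passed the adjusted threshold in limma (0 of 32, beside 0% of all genes). At an unadjusted p under 0.05, 7 members were higher, where 4.57% of all genes were, and 1 was lower, where 3.32% were. Without Cyp2a5 and Cyp2g1, favoured by the filter, 5 of 30 were higher, beside 4.51% of the genes with a control mean not below it. In 5 members every shRNA 1 liver was above every control (Cyp2a12, Cyp2c39, Cyp2c54, Cyp2d22 and Cyp2g1, or 4 without Cyp2g1), beside 5.07% of all genes, and Cyp2c68 was below every control, beside 3.82%. In shRNA 2 livers again 0 of 32 members passed in limma, beside 0.00751% of all genes. Unadjusted, 5 were higher and 1 lower, beside 4.14% and 3.46%, and without Cyp2a5 and Cyp2g1 there were 3 of 30 higher, beside 4.02%. Without overlap Cyp2c23, Cyp2c54 and Cyp2j6 were above every control, beside 3.88%, and Cyp2j9 below, beside 3.41%. The median difference over the 32 was 0.03 in shRNA 1 and 0.05 in shRNA 2 livers, and over the 30 it was 0.02 in both.

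Cyp2c39, which hydroxylates retinoic acid, had the smallest adjusted p among members in the shRNA 1 comparison. It was at 3.96, 3.99, 3.93 and 5.05 in controls, at 5.10, 5.85 and 5.82 in shRNA 1 livers and at 3.47, 4.46 and 4.53 in shRNA 2 livers. Control replicate 4 stood apart from the other 3 controls and close to the lowest shRNA 1 liver. The difference for shRNA 1 was 1.36 (standard error 0.32, adjusted p = 0.251 in limma), a ratio of 2.56. Without control replicate 4 it was 1.63 (adjusted p = 0.089 in limma). For shRNA 2 the difference was -0.08. The other 3 controls lay at 3.93 to 3.99, around the level filter of 3.98. The control mean of 4.23, which kept Cyp2c39 among the 30 members, thus rested on control replicate 4. Without that control Cyp2c39 passed the filter largely through the adapted livers, which favours a higher shRNA 1 value. Cyp2c38, its neighbour, was at 8.15, 9.02, 8.83 and 9.88 in controls, 9.35, 10.001 and 10.28 in shRNA 1 and 8.97, 8.26 and 8.14 in shRNA 2 livers. Here too control replicate 4 lay among the shRNA 1 livers, and the difference for shRNA 1 was 0.91 (standard error 0.35, adjusted p = 0.538), or 1.21 without that control.

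Cyp2u1, a fatty acid hydroxylase, had the reverse order. It was at 8.79, 8.82, 8.82 and 8.18 in controls, at 8.15, 8.19 and 8.16 in shRNA 1 livers and at 8.41, 8.60 and 8.42 in shRNA 2 livers. The shRNA 1 livers were nearly equal, and control replicate 4 was among them while the remaining controls were above all adapted livers. The shRNA 1 difference was -0.49 (standard error 0.15, adjusted p = 0.401 in limma). Without control replicate 4 it was -0.65 (adjusted p = 0.041 in limma), the one setting tried in which a member passed the threshold of 0.05. With the replicate number as a block the same difference had an adjusted p of 0.102 in limma. Which control came from the cohort of shRNA 1 is not given. Leaving out control replicate 4 may thus remove the only control of that cohort, here and for Cyp2c39 and Cyp2c38.

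These 3 genes stood apart in control replicate 4 and the shRNA 1 livers. Those livers also differed from the other controls in other genes with a known sex bias in liver. The 13 measured male-biased genes outside the members (12 above the filter, with Moxd1 below it) averaged 9.61, 9.84, 9.87 and 9.23 in controls, 8.96, 9.18 and 9.15 in shRNA 1 and 9.59, 9.40 and 8.08 in shRNA 2 livers. The 9 measured female-biased genes outside the members (6 above the filter, with Cyp2b13, Sult2a1 and Sult3a1 below it) averaged 4.47, 4.75, 4.46 and 5.80, then 5.78, 5.998 and 5.89, then 5.20, 5.59 and 6.87. Control replicate 4 was thus the lowest control on the male list and the highest on the female list. Replicate 3 of shRNA 2 was the most extreme of all livers on both lists (8.08 and 6.87). In Cyp2c38, Cyp2c39 and Cyp2u1 that liver lay outside the range of the shRNA 1 livers. Both lists were chosen with earlier results of these arrays known. The part of the sex-biased genes in the values of Cyp2c38, Cyp2c39 and Cyp2u1 was not tested.

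In shRNA 2 livers the members with the smallest adjusted p were of the Cyp2j subfamily, whose enzymes make epoxides from arachidonic acid. Cyp2j9, known mainly from brain, was at 6.51, 6.09, 6.33 and 6.35 in controls, 6.14, 6.12 and 6.27 in shRNA 1 and 5.47, 5.89 and 5.97 in shRNA 2 livers. All shRNA 2 livers were below every other liver, with a difference from control of -0.54 (standard error 0.13, adjusted p = 0.470 in limma). Cyp2j6, known mainly from intestine, was at 7.68 to 7.82 in controls, 7.70 to 7.80 in shRNA 1 livers and 7.97, 8.07 and 8.02 in shRNA 2 livers. Here all shRNA 2 livers were above every other liver, by a mean of 0.29 over control (standard error 0.08, adjusted p = 0.603 in limma). Cyp2j5 did not share either pattern, with an shRNA 2 difference of -0.03.

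Cyp2c69, closely related to the arachidonic acid hydroxylase Cyp2c40, was at 9.47, 9.58, 9.16 and 10.63 in controls, 9.98, 9.32 and 9.14 in shRNA 1 and 10.003, 10.78 and 10.77 in shRNA 2 livers. Control replicate 4 lay with the shRNA 2 livers for this gene. The difference for shRNA 2 was 0.81 (standard error 0.33, adjusted p = 0.630 in limma). Cyp2c23, an epoxygenase also named Cyp2c44, was at 11.38 to 11.47 in controls, 11.42 to 11.68 in shRNA 1 and 11.53 to 11.69 in shRNA 2 livers, so that the shRNA 2 livers lay just above all controls, by a mean of 0.18.

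**Figure D3:**
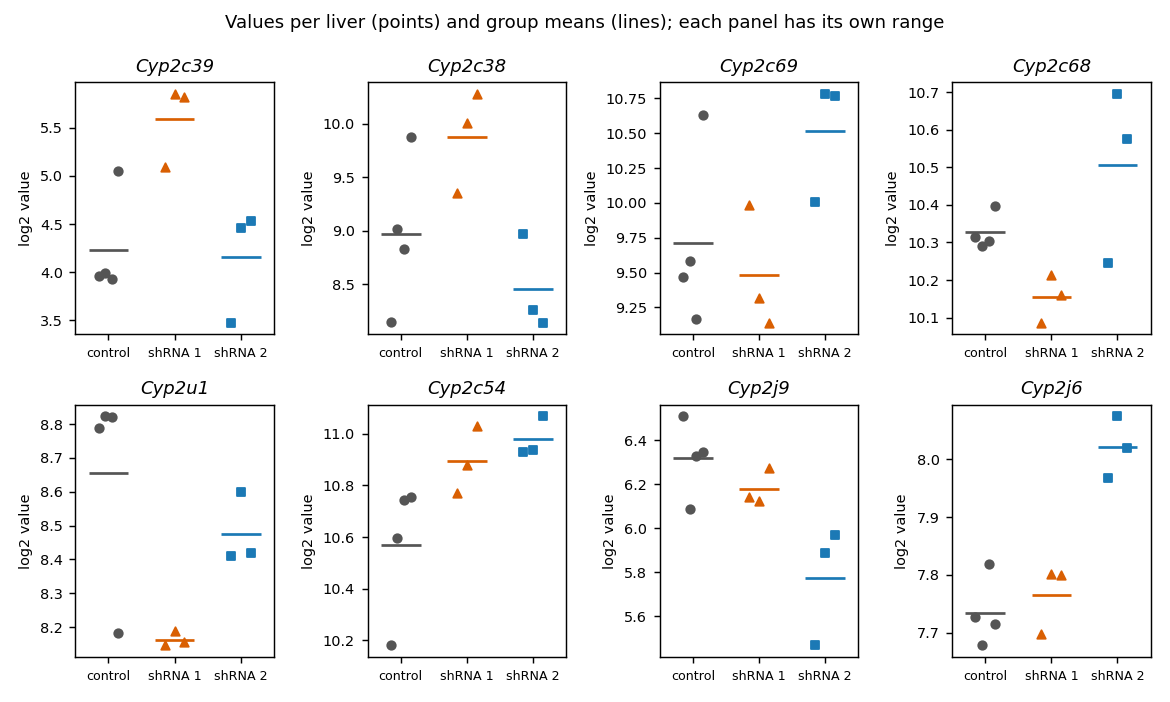
Log2 level (vertical axis) of selected members in each liver, grouped as control, shRNA 1 and shRNA 2, with a bar at each group mean. Control replicate 4 lies apart from the other controls at 5.05 for Cyp2c39 and 8.18 for Cyp2u1, and the shRNA 2 livers lie below all others for Cyp2j9.

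The hairpin groups were then compared with each other, which does not use the controls except for the shared estimate of spread. No member passed the adjusted threshold in limma (0 of 32, beside 0.015% of all genes). At an unadjusted p under 0.05, Cyp2c29, Cyp2c38, Cyp2c39 and Cyp2j9 were higher with shRNA 1 (4 members, beside 3.32% of all genes) and Cyp2c68, Cyp2c69 and Cyp2j6 were lower (3 members, beside 2.7%). Without overlap, 3 members were higher (Cyp2c38, Cyp2c39 and Cyp2j9), beside 5.94%, and 5 were lower (Cyp2c68, Cyp2c69, Cyp2c70, Cyp2j6 and Cyp2u1), beside 5.36%. The median over the 32 was -0.03, so that members differed in both directions with no net shift.

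The Cyp2c differences are given in the order of the genes in their cluster. In RefSeq's order the cluster runs Cyp2c55, Cyp2c65, Cyp2c66, Cyp2c29, Cyp2c39, Cyp2c38, Cyp2c67, Cyp2c68, Cyp2c40, Cyp2c69, Cyp2c37, Cyp2c54, Cyp2c50 and Cyp2c70. From Cyp2c55 to Cyp2c38 the 4 tested genes were higher with shRNA 1, by 0.55 for Cyp2c55, an enzyme forming hydroxyeicosatetraenoic acids, 0.32 for Cyp2c29, 1.43 for Cyp2c39 (standard error 0.34, adjusted p = 0.401 in limma) and 1.42 for Cyp2c38 (0.38, adjusted p = 0.532). The next 3 tested genes had negative differences, of -0.35 for Cyp2c68, -0.47 for Cyp2c40 and -1.04 for Cyp2c69 (standard error 0.35, adjusted p = 0.699). Without shRNA 2 replicate 3 the difference of Cyp2c40 was -0.17 and that of Cyp2c55 was 0.86. The Cyp2c55 difference was 0.34 without shRNA 2 replicate 1 and 0.84 without shRNA 1 replicate 1. The following genes were near 0, at 0.06 for Cyp2c37, -0.08 for Cyp2c54 and -0.08 for Cyp2c50, and Cyp2c70 was at -0.21. These are 11 genes read in 6 livers, both runs of one sign were picked after the values were seen, and no test was made of the order.

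**Figure D4:**
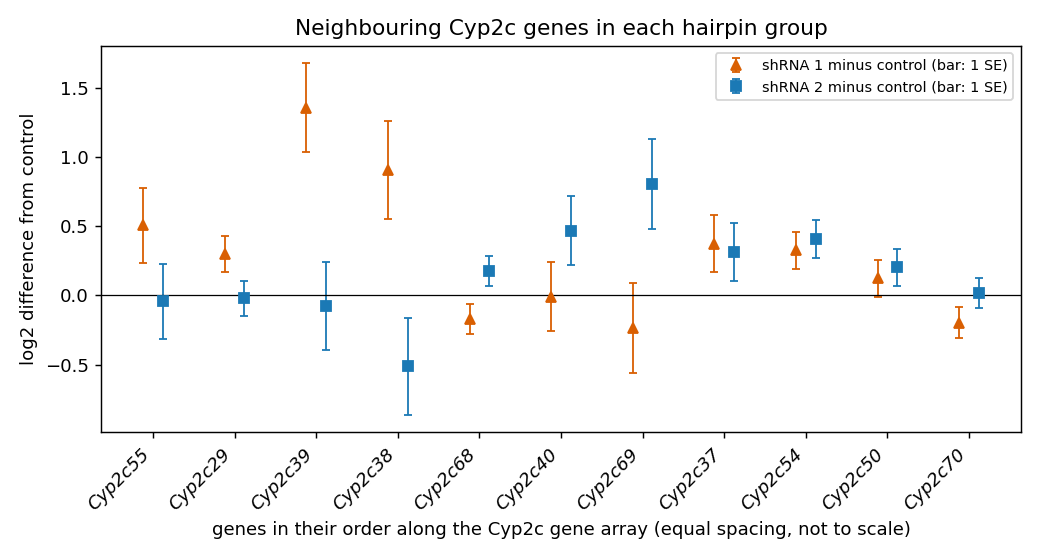
Log2 difference from control (vertical axis) of shRNA 1 livers (triangles) and shRNA 2 livers (squares) for the 11 tested Cyp2c genes of the gene cluster in their RefSeq order (horizontal axis, evenly spaced), with bars of 1 standard error. From Cyp2c55 to Cyp2c38 the triangles lie above the squares, by most for Cyp2c39 (1.36 against -0.08) and Cyp2c38 (0.91 against -0.51), and from Cyp2c68 to Cyp2c69 they lie below (-0.23 against 0.81 for Cyp2c69). Both hairpins share the same 4 controls.

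The per-liver values show how far these runs separated the groups. Cyp2c29 was at 12.15, 12.53 and 12.63 in shRNA 1 and 12.15, 12.17 and 12.03 in shRNA 2 livers, so the groups overlapped at their edge. Cyp2c55 was at 7.50, 8.33 and 8.41 against 7.11, 7.33 and 8.15. Cyp2c68 was at 10.09, 10.21 and 10.16 against 10.25, 10.70 and 10.58, with no overlap, and Cyp2c40 at 7.51, 7.55 and 7.90 against 7.84, 7.81 and 8.74, with overlap. Cyp2c67 had no transcript cluster of its own. A cluster assigned jointly to Cyp2c67 and Cyp2c68 had means of 11.12 in control, 10.89 in shRNA 1 and 11.12 in shRNA 2 livers. For Cyp2c55 a further cluster of lower level had means of 6.72, 7.06 and 7.05, and so did not repeat the difference between hairpins, while a further Cyp2c29 cluster was below the filter.

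Cyp2a4, a testosterone hydroxylase nearly identical to Cyp2a5, had the widest range of all members. It was at 10.43, 9.61, 9.09 and 8.27 in controls, 9.88, 8.96 and 8.71 in shRNA 1 and 10.63, 8.21 and 11.75 in shRNA 2 livers. Low and high livers occurred in every group. Its difference between adapted and control livers was 0.34 with a standard error of 0.59, and that between shRNA 1 and shRNA 2 was -1.02 with 0.75. Without shRNA 2 replicate 3 these were -0.05 and -0.24. A clock score, the mean standardised level of Dbp, Tef, Hlf, Per1, Per2, Per3, Nr1d1, Nr1d2 and Ciart minus that of Arntl, Npas2, Clock and Nfil3, was 1.92, -1.27, -1.18 and -1.47 in controls, 1.26, -1.58 and -1.73 in shRNA 1 and 2.05, -0.69 and 2.68 in shRNA 2 livers. The 4 livers with the highest clock scores were also the 4 with the highest Cyp2a4. With the clock score as a covariate, the shRNA 2 difference from control went from 0.84 to -0.28 and the shRNA 1 difference from shRNA 2 went from -1.02 to 0.22. Dbp, one of the genes in the score, was at 8.71, 6.85, 7.38 and 7.27, then 8.29, 7.01 and 7.16, then 8.84, 7.74 and 9.09 in the same order of livers. The clock score was unevenly spread over the groups and highest in shRNA 2 replicate 3 (2.68), the liver with the highest Cyp2a4 (11.75). In so few livers the score and the hairpin group cannot be told apart by the covariate. The part of Dbp or of the clock in the Cyp2a4 values was not tested.

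**Figure D5:**
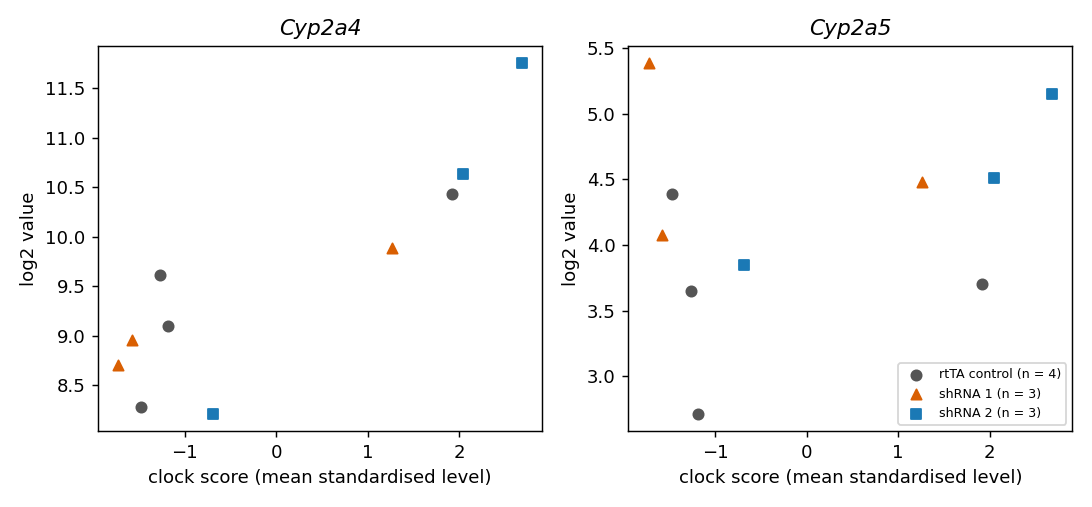
Log2 level (vertical axis) of Cyp2a4 on the left and Cyp2a5 on the right against the clock score (horizontal axis) in the 10 livers, with a colour and symbol for each group. For Cyp2a4 the 4 livers with a positive score lie highest, at 9.88 to 11.75, and the 6 with a negative score lie at 8.21 to 9.61, whereas the highest Cyp2a5 value, 5.38, belongs to the liver with the lowest score.

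Cyp2a5 and Cyp2a22, a little studied paralog, did not follow the order of livers seen for Cyp2a4. Cyp2a22 was at 5.55, 5.35, 5.34 and 6.19 in controls, 6.27, 5.58 and 5.90 in shRNA 1 and 5.58, 5.29 and 6.96 in shRNA 2 livers. Replicate 3 of shRNA 2 was the highest liver, and without it the adapted difference of 0.33 became 0.07. The same liver was the lowest for Cyp2d9, a male-biased testosterone hydroxylase, which was at 9.76, 9.95, 10.12 and 9.77 in controls, 9.76, 9.40 and 9.93 in shRNA 1 and 10.11, 9.66 and 8.53 in shRNA 2 livers. Without that liver the adapted difference of Cyp2d9 went from -0.34 to -0.11. That liver also had the lowest male-biased mean (8.08) and the highest female-biased mean (6.87) of the 10, and the part of these genes in the Cyp2d9 value was not tested. Cyp2d13, singled out after its values were seen and listed by RefSeq as a transcribed pseudogene, was at 11.24, 10.61, 10.58 and 11.35 in controls and 10.35 to 10.95 in adapted livers, so that control replicates 1 and 4 were above all other livers. The remaining tested members, Cyp2d10, Cyp2d40 and Cyp2w1, had control means of 8.94, 7.05 and 4.302 and adapted means of 9.01, 6.87 and 4.11, with overlap between the groups in each.

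The partners that supply electrons and heme to these enzymes were listed as 18 genes, of which 16 were tested. None passed in limma (smallest adjusted p 0.43), 7 had a difference above 0 between adapted and control livers, and the median was -0.04. Cyb5a, which encodes cytochrome b5, was at 0.05, Alas1, the first enzyme of heme synthesis, at -0.04, Ppox at -0.25 and Blvrb at 0.34. Of 21 tested regulators of hepatic Cyp2 genes, 10 were above 0 with a median of -0.01, and none passed. The receptors CAR (Nr1i3) and PXR (Nr1i2) were both at 0.02, Hnf4a at -0.18, Foxa3 at -0.31 and Nfe2l2, a regulator of antioxidant genes, at 0.21. Of 12 genes of the growth hormone axis 3 were above 0, the lowest being Bcl6, a repressor acting beside Stat5b, at -0.89, and Stat5b was at 0.05. Bcl6 had an adjusted p of 0.68, and the medians of these lists lay close to that of all genes.

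The sex-biased lists overlap the members and were chosen with earlier results of these arrays known, so their counts give no independent support. Of 14 tested male-biased genes, Cyp2d9 and Cyp2u1 among them, 0 were above 0 in adapted livers and the median was -0.49. Of 11 female-biased genes, which include Cyp2a4, Cyp2c38, Cyp2c39, Cyp2c40 and Cyp2c69, 10 were above 0 and the median was 0.34. At an unadjusted p under 0.05 there were 6 lower genes on the male list and 5 higher genes on the female list, where 3.51% and 4.86% of all genes were so called, and no gene of either list passed the adjusted threshold in limma.

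Other enzymes of drug metabolism were read beside the Cyp2 members. Of 22 such genes outside the Cyp2 family, 17 were above 0 in adapted livers with a median of 0.10. Between hairpins 21 were higher with shRNA 1, with a median of 0.29 where the Cyp2 members had -0.03. Of all 13308 genes tested, 6801 were higher with shRNA 1, with a median of 0.004. At an unadjusted p under 0.05 in limma 9 of the 22 were higher and 0 lower, beside 3.32% and 2.7% of all genes. Hairpin and cohort cannot be told apart in this comparison. Among the 22, Ephx1, the microsomal epoxide hydrolase that acts on epoxides formed by these cytochromes, was at 0.49 between hairpins (standard error 0.11, adjusted p = 0.310 in limma). Gstm1, a glutathione transferase, was at 0.53. The tested Cyp3a genes had 3 of 5 above 0 in adapted livers with a median of 0.24, and the Cyp4 genes 6 of 12 with -0.01. Cyp2b9 and Cyp2b10, the tested Cyp2b genes, were at 3.70 and 0.92, beyond the range of the other Cyp2 members apart from Cyp2a5 at 0.96. Control replicate 4 was at 9.35 for Cyp2b9 where the other controls lay at 3.64 to 5.95, as it stood apart for Cyp2c39 and Cyp2u1. None of these genes passed the adjusted threshold in limma.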

How the data were processed

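RNA from 25 mg of liver was hybridised to 10 single-colour arrays. The authors deposited log2 expression values per transcript cluster, and Affymetrix Expression Console is named in the submitters' processing notes. Its version, the normalization and the build were not given in the sources used here. That the scale is log2 was judged from the range of 1.40 to 13.8. Values entered the fit as deposited.

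Of 41345 clusters, 23521 had 1 gene symbol, 1814 several and 16010 none. The highest-mean single-symbol cluster stood for a gene, leaving 22180 genes, of which 13308 passed the 40th percentile of mean level. One limma fit (3.58.1, R 4.3.3) over all 10 arrays gave 4 comparisons with two-sided moderated tests, adjusted by Benjamini-Hochberg over the genes tested. The script was tested on simulated data. Comparisons with control share the same 4 livers. Named members were the 5 with the smallest limma p in each comparison, the 5 highest in controls and a list picked by role; Cyp2c50 and Cyp2d13 were added after their values were seen. Members, lists and this rule were chosen with earlier results of these data known. Paralogs were not told apart beyond the annotation. The fit was repeated with other normalization, filters, cluster rules, covariates, weights, thresholds and each liver left out. Sequences came from RefSeq tables and were aligned with Biopython 1.88. Figures used Python 3.11.15 and matplotlib 3.10.9.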

Additional observations from a re-analysis of the deposited data

Results flagged for a closer look

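Among the control livers, 1 value of Cyp2c39 and 1 of Cyp2u1 lay far from the rest of their group by Dixon's gap criterion for groups of 4. Cyp2c39 was at 5.05 in control replicate 4, where the other controls lay between 3.93 and 3.99, and the gap took up 0.95 of the range of the group. Cyp2u1 was at 8.18 in the same liver, where the others lay between 8.79 and 8.82, with a gap of 0.946 of the range. The criterion picks about 1 in 20 groups by chance, and 27 named members were examined in the controls.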

How the results depend on the processing

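Over 2144 repeated values of 108 results on named members, 93 changed sign, in 33 results. For 3 of these values the main estimate lay at least 1 standard error from 0. These were Cyp2c29 in adapted against control livers, at -0.0226 with the mean of its clusters, and Cyp2a4 with the clock covariate, at -0.28 for shRNA 2 against control and 0.22 for shRNA 1 against shRNA 2. No call on a member was lost, as none was made. The one gained was Cyp2u1 for shRNA 1, so that leaving out each liver in turn gave 0 to 1 members past the threshold there. The median member difference moved by less than 0.1252, the standard deviation of the member median between control livers. The main medians of 0.123, 0.03, 0.05 and -0.03 were themselves smaller in size. Movement below this limit therefore cannot show that they were stable.

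Counts over all genes were less stable. For adapted against control (1 gene) they were 2 at a threshold of 0.10, 0 with the 60th percentile filter, 6 with an intensity trend, 0 with only the groups compared and 1 to 3 with each liver left out. For shRNA 1 against control (0 genes) they were 20 at a threshold of 0.10, 1 with quantile normalization, 15 with the stricter filter, 7 with the mean of clusters, 19 with array weights, 30 with the trend, 3 with the clock covariate and 0 to 11 with a liver left out. For shRNA 2 against control (1 gene) they were 0 with the stricter filter and 1 to 3 with a liver left out. For shRNA 1 against shRNA 2 (2 genes) they were 8 at 0.10, 1 with quantile normalization, 4 with median centring, 1 with the stricter filter, 1 with every cluster, 6 with array weights, 7 with the trend, 1 with the clock covariate and 1 to 4 with a liver left out. The causes were not tested.

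Same-numbered livers correlated at -0.25 to 0.27 in their deviations (median 0.083), other pairs at -0.28 to 0.27 (median -0.015). With only 9 same-numbered pairs, these values cannot show whether the replicate numbers pair the samples. In control, shRNA 1 and shRNA 2 livers the clock score was 1.92, 1.26 and 2.05 for replicate 1. It was -1.27, -1.58 and -0.69 for replicate 2, and -1.18, -1.73 and 2.68 for replicate 3. With the replicate block the counts were 1, 0, 1 and 4 genes, and no member passed. The alternative with a pseudocount was not run, since the values were already log2. Counts without members whose control mean lay below the filter, and Cyp2c50 without control replicate 1, were chosen after seeing the data. The level filter left 10 members untested, and signal near the lower limit of the array bounds what Cyp2a5, Cyp2g1 and Cyp2c39 can show.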

Other observations

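Cyp2d13 and Cyp2d37-ps, a transcribed pseudogene and a gene with a pseudogene symbol, had their high values in the same livers. Cyp2d37-ps was at 10.37, 9.58, 9.62 and 10.37 in controls, 9.78, 9.75 and 9.30 in shRNA 1 and 9.90, 9.62 and 9.89 in shRNA 2 livers, and control replicates 1 and 4 were the highest of the 10 for both genes. The mean over the 32 tested members was 8.83, 8.87, 8.85 and 9.04 in controls, 8.996, 8.98 and 9.09 in shRNA 1 and 8.97, 8.91 and 9.15 in shRNA 2 livers, with control replicate 4 the highest control.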
